A study of Mus musculus with 12 samples.

Results

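Lysosomes are acidic organelles in which hydrolases break down protein, sugar chains and lipid that arrive by endocytosis, phagocytosis or autophagy. The enzymes are made as precursors, delivered from the Golgi and activated in the acid lumen, whose bounding membrane is lined by heavily glycosylated proteins such as Lamp1 and Lamp2. Many of the genes are controlled together by the transcription factor Tfeb, which binds an E-box core in their promoters, and phagocytes such as macrophages are especially rich in them. Described here are 37 mouse genes of this organelle, taken by symbol from the 24138 genes of each deposited table. They comprise 10 cathepsins, 2 other peptidases, 9 glycosidases, 6 genes of lipid handling, 8 membrane proteins, and the regulators Grn and Tfeb. Each symbol was found on 1 gene model, and Glb1 shared its model with Tmppe. Ctsk, the cathepsin of bone-resorbing cells, had at most 0.133 FPKM in any group and was not tested by the authors, which leaves 36 tested genes.

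RNA was sequenced from intra-aortic cluster cells of C57BL/6 mouse embryos, the cells budding from the wall of the dorsal aorta among which the first blood stem and progenitor cells arise. There were 4 groups of 3 samples each. They were E11.5 cells past G1, called S/G2/M after the phases of replication, gap and mitosis, and E11.5 cells in G1, and at E10.5 likewise S/G2/M cells and G1 cells, the ages being days of gestation. All 4 came from the aorta-gonad-mesonephros region (AGM) and were sorted as CD31-positive, CD117-positive and SSEA-1-negative. The S/G2/M cells came from Fucci Green animals as mAG-positive cells and the G1 cells from Fucci Red animals as mKO2-positive cells, so phase and reporter strain cannot be told apart. The deposited values are 1 FPKM per gene and group, that is, fragments per kilobase of gene model, scaled to the library's fragments. No value of a single sample is given, so no spread between samples can be shown, and sequencing depth is unknown. Genes are called, and said to rise or fall, at a q-value below 0.05 by the authors' deposited table. Whether separate litters gave the 3 samples of each group is not in the labels, so the spread behind these q-values may be technical.

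The RNA of the sort markers was present in every group. Pecam1, which encodes CD31, had 69.9 FPKM in E11.5 S/G2/M cells against 111 FPKM in E11.5 G1 cells, and 30.2 FPKM in E10.5 S/G2/M cells against 39.8 FPKM in E10.5 G1 cells. Kit, which encodes CD117, had 28.9 and 16.9 FPKM at E11.5 and 12.7 and 15.1 FPKM at E10.5, in the same order of phases. Fut4, which encodes an enzyme that can make the SSEA-1 sugar epitope, lay between 1.86 and 4.17 FPKM over all tables. Its RNA does not measure the epitope on the cells. By age, Pecam1 rose in both phases and Kit rose in S/G2/M cells. Markers of other cell types were also detected, though the cells they came from were not tested: the 17 macrophage markers summed to 1198 FPKM in E11.5 S/G2/M cells and 3245 FPKM in E11.5 G1 cells, against 349 FPKM in E10.5 S/G2/M cells and 511 FPKM in E10.5 G1 cells. In bulk RNA, fewer cells of a type and less RNA per cell cannot be told apart.

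Among the lysosomal genes, E11.5 G1 cells stood highest. Taking the mean of the 2 tables that hold each group, 35 of the 36 genes had their highest level of the 4 groups there. The exception was Mcoln1, which encodes a lysosomal cation channel, with 6.85 FPKM in E11.5 S/G2/M cells, 5.73 FPKM in E11.5 G1 cells, 4.57 FPKM in E10.5 S/G2/M cells and 1.77 FPKM in E10.5 G1 cells. Summed over the 37 genes, the level was 3849 FPKM in E11.5 G1 cells against 1209.8 FPKM in E10.5 G1 cells, which is 0.725% and 0.226% of the FPKM of all genes. In S/G2/M cells the sum was 1989 FPKM at E11.5 against 962 FPKM at E10.5, or 0.319% and 0.163% of all genes. Tables were normalised separately, and a member's value for a group differed between its 2 tables by at most 4.84%.

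Because FPKM is per length, levels can also be ranked between genes. In E11.5 G1 cells the 5 most abundant were Laptm5 (414 FPKM), Ctsd (402 FPKM), Lamp1 (305 FPKM), Ctsb (275 FPKM) and Grn (257 FPKM). In E11.5 S/G2/M cells they were Laptm5 (337 FPKM), Ctsd (174 FPKM), Lamp1 (163 FPKM), Psap (107 FPKM) and Cd63 (105 FPKM). The leading gene was a different one at E10.5. Lamp1, a structural protein of the lysosomal membrane, led with 122 FPKM in E10.5 S/G2/M cells and 128 FPKM in E10.5 G1 cells, followed in both by Ctsd, Ctsl, Cd63 and Laptm5 in slightly different orders between 68.4 and 98.5 FPKM. Laptm5, a membrane protein of blood cell lysosomes, was therefore at rank 4 or 5 at E10.5 and led at E11.5. Without replicate values, neighbouring ranks cannot be shown to differ.

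**Figure D1:**
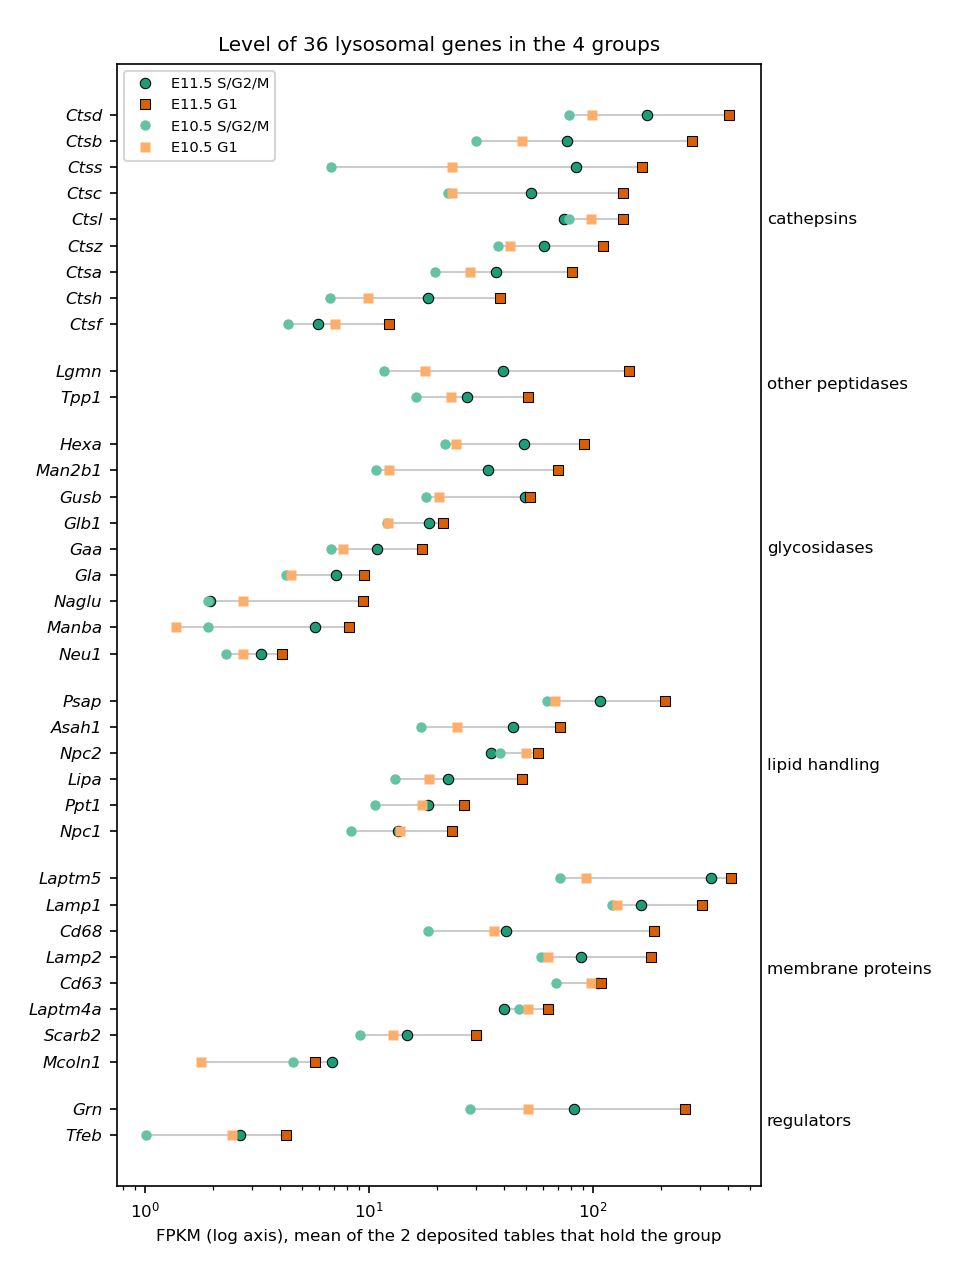
Level of each tested lysosomal gene in the 4 groups, in FPKM on a log axis, with 1 row per gene and rows grouped by role. Circles are S/G2/M cells, squares are G1 cells and black outlines mark E11.5; each point is the mean of the 2 deposited tables that hold the group, without replicate error. The dark orange squares of E11.5 G1 cells lie farthest right in 35 of 36 rows.

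The promoters of these genes are shown because Tfeb is known to bind a CACGTG core. Windows of 250 bases before to 50 bases after each start were taken from RefSeq (GRCm38.p6, the assembly of mm10), and 33 of the 37 genes had one. CACGTG, which reads the same on both strands, was present in 11 of these 33 genes (33.3%), against 2187 of 27025 genes with a window (8.09%). The longer form CACGTGA, searched on both strands and containing the core, was in 9 of 33 (27.3%) against 1160 of 27025 genes (4.29%). Among genes that rose or fell in a comparison, 4 of 15 called genes with a window had the core (26.7%) against 7 of 18 uncalled genes (38.9%). A gene with several windows counted if any of them held the core. The called genes with the core were Lgmn, Ctsd, Lamp1 and Ctsa, and the uncalled ones were Ctsf, Ctsl, Gaa, Gla, Glb1, Mcoln1 and Naglu. A match is a description of the letters and does not show that a factor binds there. Promoters of lysosomal genes are already known for this core, so its higher share than over all genes is no result about these cells. Below are the 4 windows of called genes with the core, each 5′ to 3′ on the strand of the gene, with the core in capitals.
Lgmn, chr12:102439043-102439342, minus strand, the one of its 2 windows with a match
Lgmn: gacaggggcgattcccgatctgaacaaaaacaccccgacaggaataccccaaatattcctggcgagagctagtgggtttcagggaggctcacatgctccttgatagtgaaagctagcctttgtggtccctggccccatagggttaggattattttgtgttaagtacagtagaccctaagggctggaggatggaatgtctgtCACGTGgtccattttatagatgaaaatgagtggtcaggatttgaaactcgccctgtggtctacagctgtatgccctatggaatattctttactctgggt
Ctsd, chr7:142387778-142388077, minus strand
Ctsd: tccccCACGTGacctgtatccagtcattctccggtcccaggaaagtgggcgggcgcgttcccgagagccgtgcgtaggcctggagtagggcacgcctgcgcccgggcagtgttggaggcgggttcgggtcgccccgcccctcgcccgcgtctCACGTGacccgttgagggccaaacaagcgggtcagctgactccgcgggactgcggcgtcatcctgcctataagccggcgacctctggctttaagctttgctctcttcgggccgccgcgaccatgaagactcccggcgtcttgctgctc
Lamp1, chr8:13158911-13159210, plus strand
Lamp1: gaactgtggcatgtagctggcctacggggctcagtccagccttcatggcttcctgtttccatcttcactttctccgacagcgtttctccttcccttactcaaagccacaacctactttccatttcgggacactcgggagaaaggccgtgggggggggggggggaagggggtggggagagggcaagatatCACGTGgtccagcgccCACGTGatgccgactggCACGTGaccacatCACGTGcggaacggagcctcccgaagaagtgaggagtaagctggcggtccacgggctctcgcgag
Ctsa, chr2:164833523-164833822, plus strand, the one of its 2 windows with a match
Ctsa: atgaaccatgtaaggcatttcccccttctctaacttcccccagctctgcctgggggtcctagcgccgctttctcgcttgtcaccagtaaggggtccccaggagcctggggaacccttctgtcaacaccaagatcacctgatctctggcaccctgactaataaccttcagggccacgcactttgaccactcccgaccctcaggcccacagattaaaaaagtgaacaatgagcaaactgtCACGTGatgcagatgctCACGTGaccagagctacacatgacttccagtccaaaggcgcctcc
Lamp1 held 4 cores, beginning at positions -61, -45, -28 and -15 from its start, and Ctsd held 2, at -245 and -98. In Ctsa they began at -12 and 6, on either side of the start, and in Lgmn the single core began at -49. The printed Lgmn window lies inside the deposited gene model, whose 5′ end is at 102439697. The other Lgmn window, chr12:102439679-102439978, spans that end and has no core. The printed Ctsa window also lies inside its deposited model (164830730 to 164857708). For contrast, the windows of Ctss and Ctsc, both called with large changes, have no CACGTG and are printed in lower case throughout.
Ctss, chr3:95526536-95526835, plus strand
Ctss: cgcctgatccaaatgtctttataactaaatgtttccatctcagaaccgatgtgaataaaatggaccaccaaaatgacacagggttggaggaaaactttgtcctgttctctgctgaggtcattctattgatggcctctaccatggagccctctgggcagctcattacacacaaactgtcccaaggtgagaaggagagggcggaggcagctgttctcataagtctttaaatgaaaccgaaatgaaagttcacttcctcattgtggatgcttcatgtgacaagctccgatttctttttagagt
Ctsc, chr7:88277835-88278134, plus strand
Ctsc: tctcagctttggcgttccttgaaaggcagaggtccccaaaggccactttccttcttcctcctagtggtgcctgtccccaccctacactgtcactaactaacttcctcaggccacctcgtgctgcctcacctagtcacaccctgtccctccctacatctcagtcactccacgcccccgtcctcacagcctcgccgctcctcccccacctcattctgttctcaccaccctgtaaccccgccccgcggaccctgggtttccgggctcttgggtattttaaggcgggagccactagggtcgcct

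G1 cells at E11.5 were set against G1 cells at E10.5, which asks how cluster cells in G1 differed between these ages. All 36 tested lysosomal genes were higher at E11.5, and 18 rose and none fell by the authors' deposited table. Of all tested genes 3.0% rose (389 of 12953) and 1.45% fell, and 50.9% were higher by any amount. Among genes reaching 5 FPKM in either group, 3.84% rose. The median log2 fold change of the 36 genes was 1.49, against 0.02 for all tested genes. At least 2-fold higher were 26 of the 36 (72.2%), against 15.8% of all tested genes above 0 in both groups. Every role took part: 6 of 9 tested cathepsins rose, 1 of 2 other peptidases, 3 of 9 glycosidases, 3 of 6 lipid genes, 4 of 8 membrane proteins and 1 of 2 regulators.

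Lgmn encodes legumain, an asparagine-specific peptidase that trims cathepsins into their mature chains, and lies on chromosome 12 (102394098 to 102439697, mm10). It had 145 FPKM in E11.5 G1 cells against 17.5 FPKM in E10.5 G1 cells, an 8.30-fold rise and the largest of the 36 genes by fold (q = 0.00273 in the authors' deposited table). Ctss, the cathepsin that degrades the invariant chain in antigen-presenting cells, on chromosome 3 (95526786 to 95556405), had 167 FPKM against 23.0 FPKM, a 7.25-fold rise. Ctsc, which activates the serine proteases of granules, rose 6.00-fold, to 137 FPKM in E11.5 G1 cells, against 22.9 FPKM in E10.5 G1 cells. Each of these was thus a modest transcript at E10.5 and an abundant one at E11.5. The broad cysteine protease gene Ctsb, on chromosome 14 (63122462 to 63179578), rose 5.89-fold, with 277 and 47.0 FPKM at E11.5 and E10.5. Ctsd, the main aspartic protease of lysosomes, whose promoter holds 2 cores, rose 4.20-fold, with 405 FPKM at E11.5 and 96.3 FPKM at E10.5. Ctsh, an aminopeptidase, and Ctsa, a carboxypeptidase that also protects the glycosidases Glb1 and Neu1, rose 3.98-fold and 2.93-fold (the authors' deposited table gives q of 0.0321 and 0.0364). The 3 other tested cathepsins did not pass. Ctsl, a cysteine protease, was already abundant at E10.5, with 137 FPKM at E11.5 against 95.6 FPKM (q = 0.527 in the authors' deposited table). The carboxypeptidase gene Ctsz had 111 and 41.4 FPKM, and Ctsf had 12.3 and 6.91 FPKM, again with E11.5 first. Tpp1, which removes tripeptides from protein ends, had 51.5 and 22.6 FPKM and just missed the threshold (q = 0.0536 in the authors' deposited table).

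Among the glycosidases, Man2b1, which trims alpha-linked mannose, had the largest fold past the threshold, 5.83-fold, to 70.2 FPKM in E11.5 G1 cells against 12.0 FPKM in E10.5 G1 cells. Hexa, the alpha subunit of beta-hexosaminidase, rose 3.81-fold, to 91.3 FPKM against 23.98 FPKM, and Gusb, the beta-glucuronidase, rose 2.62-fold, to 52.4 FPKM against 20.0 FPKM. The other 6 did not pass. They ranged in log2 fold change from 0.62 for the sialidase gene Neu1 (4.10 and 2.68 FPKM at E11.5 and E10.5) to 2.60 for the beta-mannosidase gene Manba (8.17 and 1.35 FPKM). Between these lay Gla, Glb1, Gaa and Naglu, which cleave galactose, glucose or glucosamine residues and had 9.48 to 21.6 FPKM at E11.5.

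Of the lipid genes, Psap, the precursor of the saposins that present lipids to their hydrolases, rose 3.16-fold, to 210.2 FPKM in E11.5 G1 cells against 66.5 FPKM in E10.5 G1 cells. Asah1, the acid ceramidase, rose 2.96-fold and Lipa, the acid lipase of cholesteryl esters, rose 2.66-fold. The 2 cholesterol export genes did not pass: Npc1 had 23.7 FPKM at E11.5 and 13.5 FPKM at E10.5, and Npc2 had 57.1 and 49.1 FPKM. Ppt1, which removes palmitate from proteins, had 26.6 and 16.8 FPKM.

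The membrane proteins ranged widely. Cd68, the macrosialin of macrophages, on chromosome 11 (69664213 to 69666170), rose 5.33-fold, to 189 FPKM in E11.5 G1 cells against 35.4 FPKM in E10.5 G1 cells. Laptm5, on chromosome 4 (130913334 to 130936148), rose 4.59-fold, to 416 FPKM against 90.6 FPKM. The structural proteins rose less, Lamp2 2.98-fold, to 183 FPKM against 61.5 FPKM, and Lamp1 2.45-fold, to 307 FPKM against 125 FPKM. By contrast, the tetraspanin gene Cd63 had 109 FPKM at E11.5 and 95.2 FPKM at E10.5 (q = 0.862 in the authors' deposited table), the smallest difference of the 36. Laptm4a, a relative of Laptm5, had 63.3 and 49.95 FPKM. Scarb2, the receptor that carries glucocerebrosidase to lysosomes, had 30.3 and 12.6 FPKM, and Mcoln1 had 5.77 and 1.73 FPKM, without passing.

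Grn, which encodes progranulin, a precursor cut into granulins in lysosomes, lies on chromosome 11 (102430322 to 102436809) and rose 5.17-fold, to 259 FPKM in E11.5 G1 cells against 50.005 FPKM in E10.5 G1 cells. Tfeb itself was a low transcript, with 4.29 and 2.40 FPKM, and did not pass (q = 0.741 in the authors' deposited table).

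S/G2/M cells at E11.5 were set against S/G2/M cells at E10.5 as the same question in cycling cells. These 2 age comparisons share no samples. Of the 36 genes, 33 were higher at E11.5, and 9 rose and none fell by the authors' deposited table. Of all tested genes 2.14% rose (273 of 12768), 1.93% fell and 52.1% were higher by any amount, and 2.87% rose among those reaching 5 FPKM in either group. The median log2 fold change was 0.82 for the 36 genes and 0.03 for all tested genes. The 9 were Ctss, Ctsc, Ctsd, Lgmn, Man2b1, Gusb, Asah1, Laptm5 and Grn. All 9 had also risen in G1 cells, where 18 were called. The matching overlap over all genes was not computed, so this overlap cannot be called particular to the lysosomal genes. The sign was the same in both phases for 33 of 36 genes (91.7%), against 67.7% of all genes tested in both.

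Ctss had the largest fold of the 36 genes over the 4 comparisons, 85.5 FPKM in E11.5 S/G2/M cells against 6.70 FPKM in E10.5 S/G2/M cells, a 12.8-fold rise (q = 0.00548 in the authors' deposited table). Laptm5 rose 4.84-fold, to 343 FPKM against 70.9 FPKM. In both, the fold in S/G2/M cells was at least that seen in G1 cells. Lgmn rose 3.49-fold, to 40.4 FPKM against 11.6 FPKM, Man2b1 rose 3.25-fold and Grn rose 2.99-fold, to 83.9 FPKM against 28.1 FPKM. Gusb rose 2.84-fold, to 50.7 FPKM in E11.5 S/G2/M cells against 17.8 FPKM in E10.5 S/G2/M cells. Asah1, Ctsc and Ctsd rose 2.62-fold, 2.40-fold and 2.30-fold, the smallest of the 9.

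The other 9 genes that rose in G1 cells were Cd68, Ctsa, Ctsb, Ctsh, Hexa, Lamp1, Lamp2, Lipa and Psap. All were higher at E11.5 in S/G2/M cells too, without passing. Ctsb had 78.1 FPKM in E11.5 S/G2/M cells against 29.8 FPKM in E10.5 S/G2/M cells (q = 0.0846 in the authors' deposited table), and Hexa had 50.2 and 21.8 FPKM (q = 0.0611 in the authors' deposited table). Cd68 had 41.6 and 18.1 FPKM (q = 0.163 in the authors' deposited table). Lamp1 had 166 and 121 FPKM, and Psap had 109 and 61.6 FPKM. The 3 genes that were lower at E11.5 were Laptm4a (40.8 and 46.4 FPKM), Npc2 (35.8 and 38.2 FPKM) and Ctsl (75.5 and 77.5 FPKM), and none of them passed. The age difference in log2 fold change was larger in G1 than in S/G2/M cells for 30 of 36 genes, against 51.0% of all genes tested in both. Whether the 2 age differences differ could not be tested, since that needs values of single samples.

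**Figure D2:**
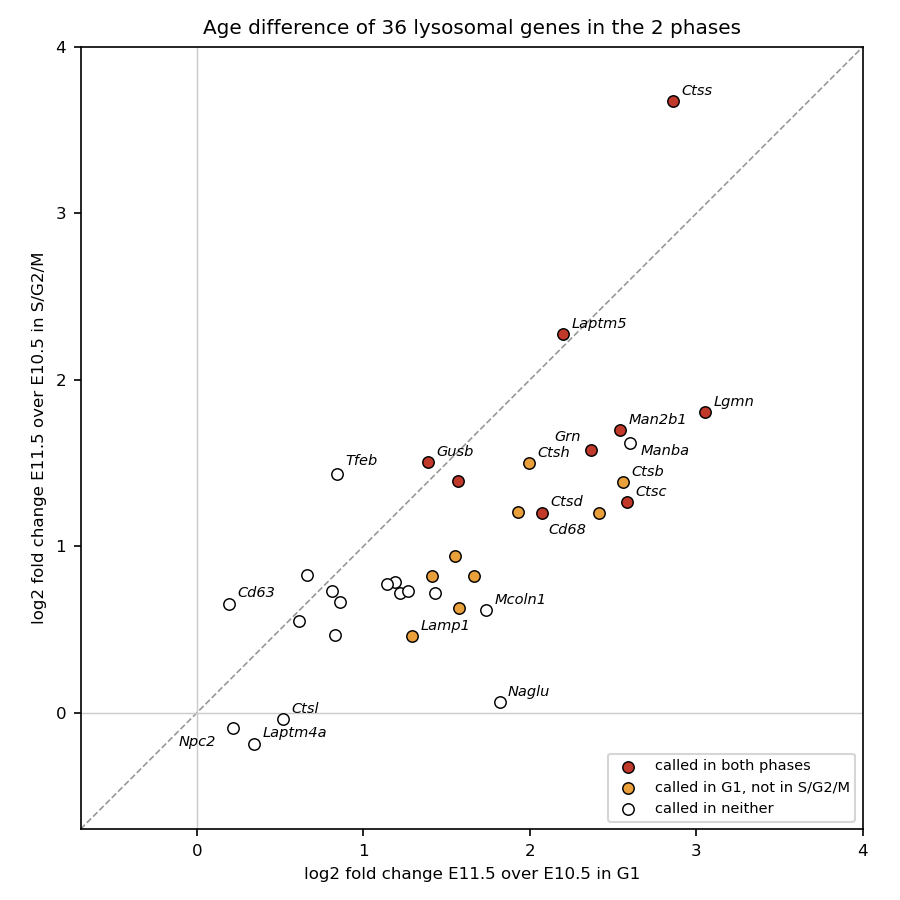
Log2 fold change of E11.5 over E10.5 in G1 cells (horizontal) and in S/G2/M cells (vertical), 1 point per lysosomal gene, without replicate error. Red points rose in both phases (9 genes), orange points rose in G1 and did not pass in S/G2/M (9 genes), and white points passed in neither. Most points lie below the dashed line of equal change, and 6 lie above it (Ctss, Laptm5, Gusb, Tfeb, Ppt1 and Cd63).

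S/G2/M cells were set against G1 cells at E11.5 to compare cells of different cycle phase. This comparison shares the E11.5 G1 samples with the age comparison in G1 cells and is not independent of it. Of the 36 genes, 35 were lower in S/G2/M cells, among them Cd63, whose direction turned when fold changes were centred on the median of all tested genes (log2 fold change 0.000237 after centring). By the authors' deposited table Cd68, Lgmn, Ctsb and Grn fell, 4 of 36, and none rose. Over all tested genes 0.564% fell (70 of 12414), 0.137% rose and 54.0% were lower by any amount, and 0.553% fell among those reaching 5 FPKM in either group. The median log2 fold change was -0.91, against -0.06 for all tested genes. At least 2-fold lower were 15 of the 36 (41.7%), against 12.0% of all tested genes, and 19 of 36 had a raw p below 0.05 by the authors' deposited table, against 8.27% of all tested genes.

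Cd68 showed the largest called difference, with 39.9 FPKM in E11.5 S/G2/M cells against 186 FPKM in E11.5 G1 cells (log2 fold change -2.22, q = 0.0102 in the authors' deposited table). Lgmn had 38.8 FPKM against 143 FPKM (log2 fold change -1.88, q = 0.0102 in the authors' deposited table). Grn had 80.6 FPKM against 256 FPKM (log2 fold change -1.67, q = 0.0102 in the authors' deposited table). In these 3 genes the level in S/G2/M cells was under that of G1 cells by 3.18-fold to 4.67-fold. Ctsb followed, with 74.9 FPKM against 274 FPKM, 3.66-fold lower (q = 0.0242 in the authors' deposited table).

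No other gene passed. With the called ones included, all 9 tested cathepsins were lower, those with the largest log2 differences after Ctsb being Ctsc (51.8 FPKM in S/G2/M cells and 135 FPKM in G1 cells) and Ctsd (170.2 and 400.1 FPKM). All 9 glycosidases were lower, from Gusb, with 48.7 and 51.8 FPKM, to Naglu, a heparan sulfate enzyme of low level, with 1.91 and 9.38 FPKM. All 6 lipid genes were lower, Psap with 104.7 and 208 FPKM and Lipa with 22.1 and 47.7 FPKM. Of the membrane proteins 7 of 8 were lower, Lamp1 with 160 and 303 FPKM and Lamp2 with 86.6 and 181 FPKM. Cd63 had similar values in both phases, 103 FPKM in S/G2/M cells and 108 FPKM in G1 cells. Laptm5, with 330.4 and 411 FPKM, was 1.24-fold lower in S/G2/M cells. Mcoln1 was the single gene on the other side, with 6.73 FPKM in S/G2/M cells and 5.69 FPKM in G1 cells.

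At E10.5 the S/G2/M cells did not differ from the G1 cells in any lysosomal gene past the threshold. None of 36 rose or fell by the authors' deposited table, in which 0.193% of all tested genes rose (25 of 12984) and 0.462% fell (60 of 12984). A raw p below 0.05 stood there for 3 of the 36 (8.33%), Ctss, Grn and Cd68, against 6.69% of all tested genes, a share near that background. Ctss had 6.81 FPKM in E10.5 S/G2/M cells against 24.002 FPKM in E10.5 G1 cells, Grn had 28.5 against 52.2 FPKM and Cd68 had 18.4 against 36.97 FPKM, with the authors' deposited table giving q of 0.469, 0.532 and 0.69997. The median log2 fold change was -0.40, against -0.04 for all tested genes, and 34 of 36 genes were lower in S/G2/M cells, against 52.9% of all tested genes. The differences were small: 3 of the 36 (8.33%) were at least 2-fold lower, under the 11.2% of all tested genes above 0 in both groups. Manba (1.92 FPKM in S/G2/M cells and 1.404 FPKM in G1 cells) and Mcoln1 (4.59 and 1.81 FPKM) were the 2 that were higher. Tfeb had 1.02 and 2.51 FPKM.

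The phase comparisons at the 2 ages share no samples, and 35 of 36 genes (97.2%) had the same sign in both, against 60.2% of all genes tested in both. The log2 fold change was lower at E11.5 than at E10.5 in 30 of the 36, against 49.9% of all genes tested in both. That count restates the larger age difference in G1 cells given above, since both set the same 4 groups against each other. It is not a second result. Whether the phase difference itself changed with age could not be tested.

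**Figure D3:**
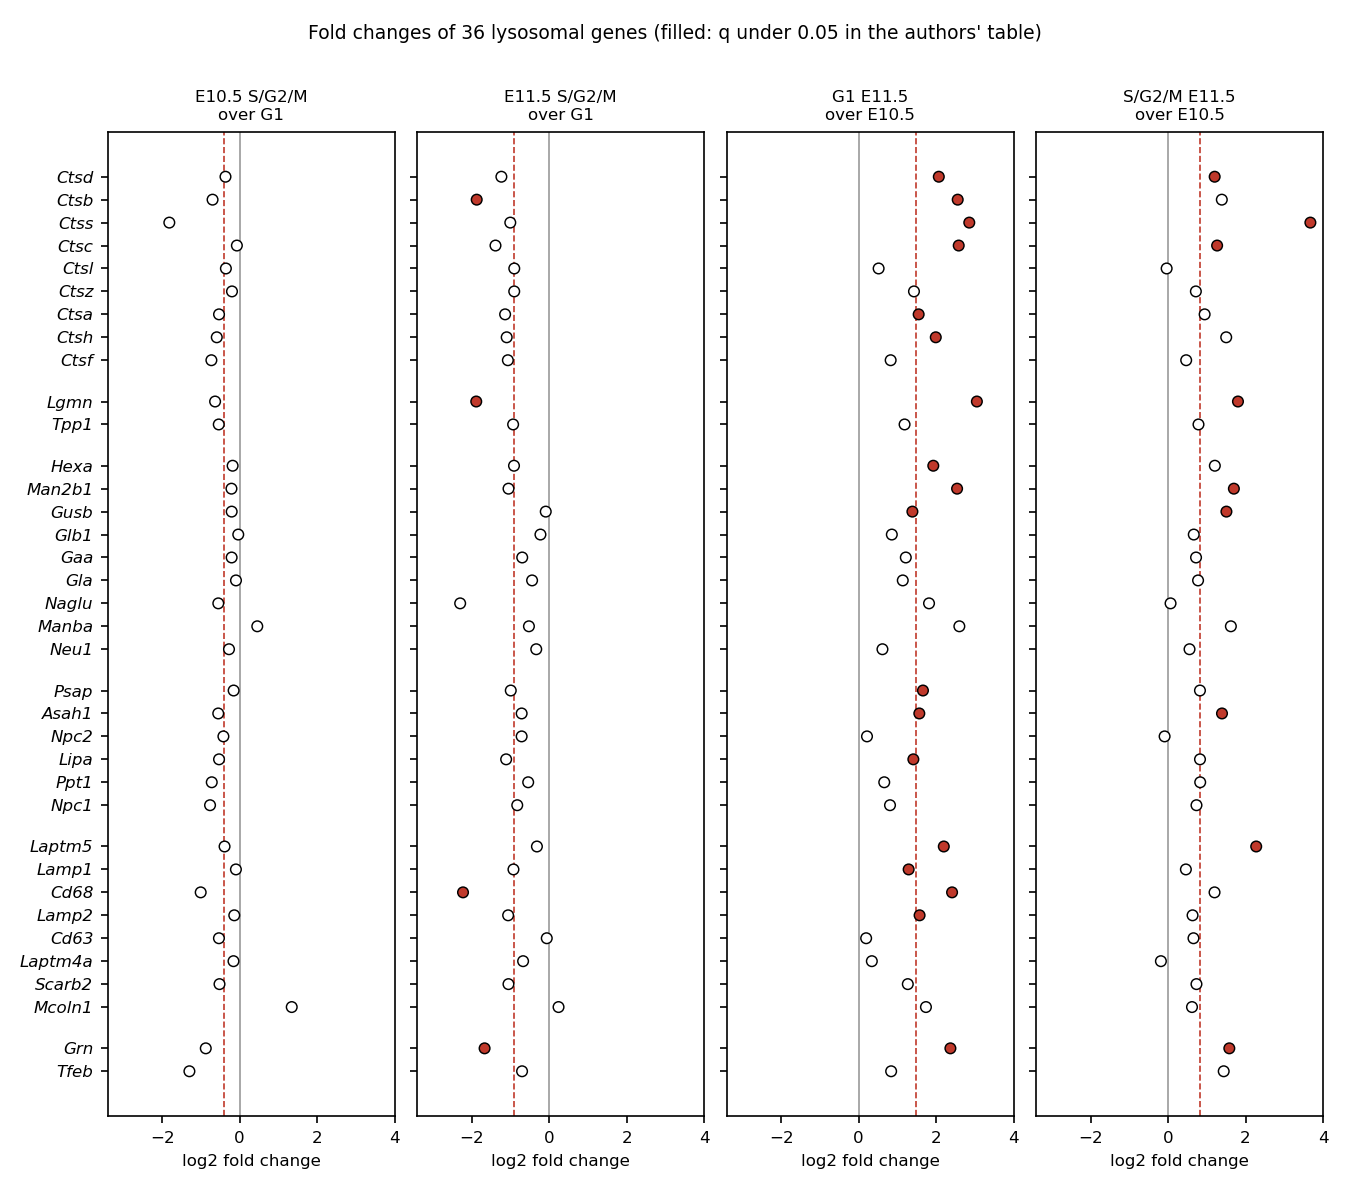
Log2 fold change of each tested lysosomal gene in the 4 comparisons, with 1 row per gene and 1 panel per comparison, each point being the ratio of the 2 authors' group values. Filled points have q below 0.05 by the authors' deposited table (0, 4, 18 and 9 genes from left to right), the dashed red line is the median of the 36 genes and the grey line is 0. No filled point lies on the other side of 0 from the median.

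**Figure D4:**
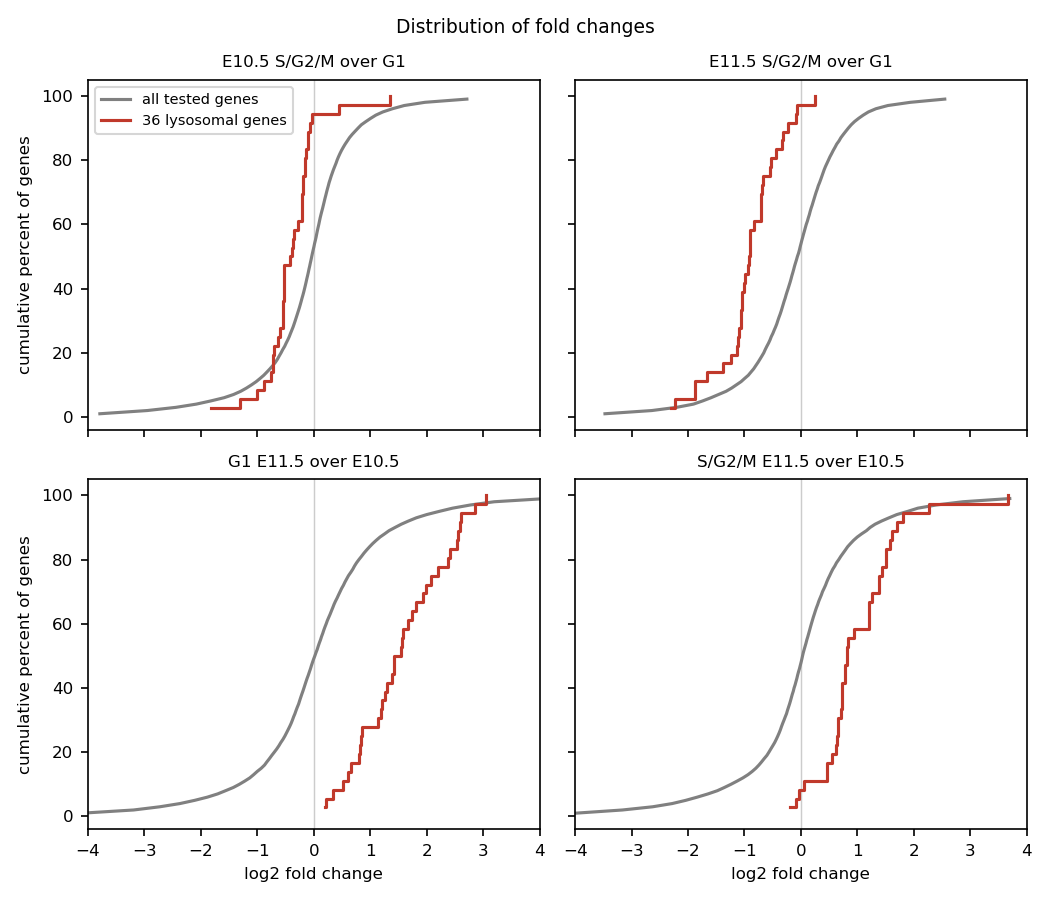
Cumulative distribution of log2 fold changes in the 4 comparisons, with the 36 lysosomal genes as a red step and all tested genes above 0 in both groups as a grey line (percentiles 1 to 99). The red curves lie left of the grey ones through most of both phase panels and right of them through most of both age panels, with medians of -0.40, -0.91, 1.49 and 0.82.

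Other lysosomal genes were examined as 7 lists. In G1 cells by age, 4 of 26 further hydrolases and activators rose and none fell (median log2 fold change 1.18). Among them were the arylsulfatase gene Arsb (36.7 FPKM at E11.5 and 6.71 FPKM at E10.5), the ganglioside activator gene Gm2a (22.8 and 4.33 FPKM) and the sulfatase-modifying gene Sumf1 (26.9 and 9.504 FPKM). Of 19 further membrane proteins and transporters 3 rose (median 0.92 over 18 above 0), namely the phagosomal metal transporter gene Slc11a1 with a 14.0-fold rise, to 32.1 FPKM against 2.29 FPKM, the nucleoside transporter gene Slc29a3, and Abcb9, which was listed at 0 at E10.5 and had 1.04 FPKM at E11.5. Of all tested genes 3.0% rose and 1.45% fell in this comparison.

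The lists for acidification, delivery and autophagy had smaller medians than the 36 genes. With 3.0% of all tested genes risen, a single call among 17 or 18 genes does not set a list apart. Among 18 tested subunits of the V-ATPase, the proton pump that acidifies lysosomes, Tcirg1 alone rose in G1 cells by age, to 18.4 FPKM at E11.5 against 3.19 FPKM at E10.5, and the median was 0.54. The most abundant subunit gene, Atp6v0c, had 351 FPKM at E11.5 and 193 FPKM at E10.5 without passing. Among 17 genes of delivery to lysosomes, the adaptor gene Gga1 rose 5.47-fold (median 0.47), and the mannose 6-phosphate receptor gene M6pr, with 60.4 and 42.4 FPKM, did not pass. The cystatins, which inhibit cysteine cathepsins, had a larger median, 2.15, over only 4 genes above 0 in both groups, ranging from 0.27 to 3.77. Of 5 tested, 2 rose, among them Cst3, to 612 FPKM at E11.5 against 269.8 FPKM at E10.5. The other was Stfa1, with 78.1 against 9.04 FPKM, a member of a family of near-identical copies whose reads may be shared. None of 18 autophagy genes passed, and their median was 0.13. A raw p below 0.05 stood for 2 of the 18 by the authors' deposited table, against 15.4% of all tested genes. Gabarap, which encodes a protein of the autophagosome membrane, had 231 FPKM at E11.5 and 140.04 FPKM at E10.5.

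Among the relatives of Tfeb and the mTORC1 complex that senses nutrients on lysosomes, 1 of 17 rose and 1 fell in G1 cells by age (median 0.08). Over all tested genes 3.0% rose and 1.45% fell, so 1 call each way does not set this list apart. Tfe3, a factor of the same family that binds the same core, rose 4.08-fold, to 24.01 FPKM at E11.5 against 5.89 FPKM at E10.5 (q = 0.0424 in the authors' deposited table). Rragd, a Rag GTPase that anchors mTORC1 to lysosomes, fell 7.10-fold, to 2.31 FPKM against 16.4 FPKM. Tfec had 23.2 and 5.41 FPKM (q = 0.0727 in the authors' deposited table) and Mitf 2.32 and 0.669 FPKM. Rragd also fell in S/G2/M cells by age, with 3.91 FPKM at E11.5 against 17.3 FPKM at E10.5. It was the single gene of the 7 lists that passed there, where 2.14% of all tested genes rose and 1.93% fell. In S/G2/M cells Tfe3 had 8.39 FPKM at E11.5 and 8.88 FPKM at E10.5 (q = 0.972 in the authors' deposited table).

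In S/G2/M cells by age, the medians of the 7 lists were 0.67 for further hydrolases, 0.73 for further membrane proteins, 0.45 for the V-ATPase, 0.41 for delivery, 0.64 for cystatins, 0.17 for the Tfeb relatives and mTORC1, and 0.08 for autophagy. In the same order, 8 of 26, 4 of 18, 1 of 18, 3 of 17, 1 of 4, 2 of 16 and 2 of 18 genes had a raw p below 0.05 by the authors' deposited table, where 13.9% of all tested genes did. In neither phase comparison did any gene of the 7 lists pass, where 0.655% of all tested genes did at E10.5 and 0.701% at E11.5. For S/G2/M over G1 at E11.5 the medians were -0.90, -0.54, -0.42, -0.18, -0.75, 0.02 and -0.35, in the same order of lists, and 7 of 26, 3 of 19, 3 of 18, 0 of 17, 1 of 5, 2 of 17 and 3 of 18 genes had a raw p below 0.05 by the authors' deposited table, against 8.27% of all tested genes. At E10.5 they were -0.41, -0.39, -0.30, -0.11, -0.15, -0.12 and -0.32, with 2 of 26, 0 of 18, 3 of 18, 0 of 17, 1 of 3, 1 of 17 and 1 of 18 genes at a raw p below 0.05, against 6.69% of all tested genes. Gabarap had 86.5 FPKM in E11.5 S/G2/M cells and 228 FPKM in E11.5 G1 cells (q = 0.0650 in the authors' deposited table).

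Macrophage markers moved with the lysosomal genes in each comparison with calls. Of the 17 markers, 14 of 16 tested rose in G1 cells by age (median log2 fold change 2.79), with a summed level of 3282 FPKM at E11.5 against 490.2 FPKM at E10.5. In S/G2/M cells by age 8 of 15 rose (median 1.91), with sums of 1247 FPKM at E11.5 and 343 FPKM at E10.5. At E11.5, 6 of 16 fell in S/G2/M cells (median -1.61), with sums of 1198 FPKM in S/G2/M cells and 3245 FPKM in G1 cells. At E10.5 none of 16 passed and 3 had a raw p below 0.05 by the authors' deposited table (median -0.63). Cd163 was listed at 0 in every group except E11.5 G1 cells, where it had only 0.0203 FPKM in the phase comparison and was not tested there. Csf1r, the growth factor receptor that defines macrophages, had 73.5 FPKM in E11.5 S/G2/M cells against 228 FPKM in E11.5 G1 cells, and 18.4 FPKM in E10.5 S/G2/M cells in the table by age. The part of macrophage RNA in the lysosomal differences was not tested. Without Cd68, Ctss and Laptm5, which also mark leukocytes, 15 of 33 genes rose in G1 cells by age, against 3.0% of all tested genes. In S/G2/M cells by age 7 of 33 rose, against 2.14%, and 3 of 33 fell in E11.5 S/G2/M cells, against 0.564%. Phagocytes are rich in lysosomal genes in general, so these counts cannot separate out macrophage RNA.

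Several other marker lists also had medians above 0 by age, and their phase medians varied. Of all tested genes 3.0% rose and 1.45% fell in G1 cells by age, and 2.14% and 1.93% in S/G2/M cells by age. For S/G2/M over G1 the shares risen and fallen were 0.193% and 0.462% at E10.5, and 0.137% and 0.564% at E11.5. Of 8 stem and progenitor markers, 3 of 7 tested rose in G1 cells and 5 of 8 in S/G2/M cells by age (medians 1.51 and 1.75), and at E11.5 Hlf rose in S/G2/M cells over G1 cells while the list median was 0.68. Of 8 endothelial markers none passed in G1 cells by age, 4 having a raw p below 0.05 by the authors' deposited table, and Tie1 and Erg rose in S/G2/M cells by age (medians 0.84 and 0.998). For S/G2/M over G1 the endothelial medians were -0.36 at E10.5 and -0.35 at E11.5, on the side of the lysosomal genes. The granulocyte and mast cell list had 3 of 6 risen in G1 cells and 1 of 5 in S/G2/M cells by age. Its medians by age were 3.13 over 4 genes above 0 in both groups of G1 cells, and 1.91 over 5 in S/G2/M cells. For S/G2/M over G1 its medians were above 0, 1.34 at E10.5 and 0.73 at E11.5. At E11.5 Mpo rose and S100a8 fell in S/G2/M cells. Of 4 megakaryocyte markers, Pf4 rose in S/G2/M cells by age and none passed elsewhere. Of 5 neuronal markers all 5 fell in E10.5 S/G2/M cells, with a sum of 56.4 FPKM against 348 FPKM in E10.5 G1 cells, and 2 fell in G1 cells by age. Of 5 mesenchymal markers 3 fell by age in G1 cells and 3 in S/G2/M cells. The part of these markers in the lysosomal values was not tested.

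**Figure D5:**
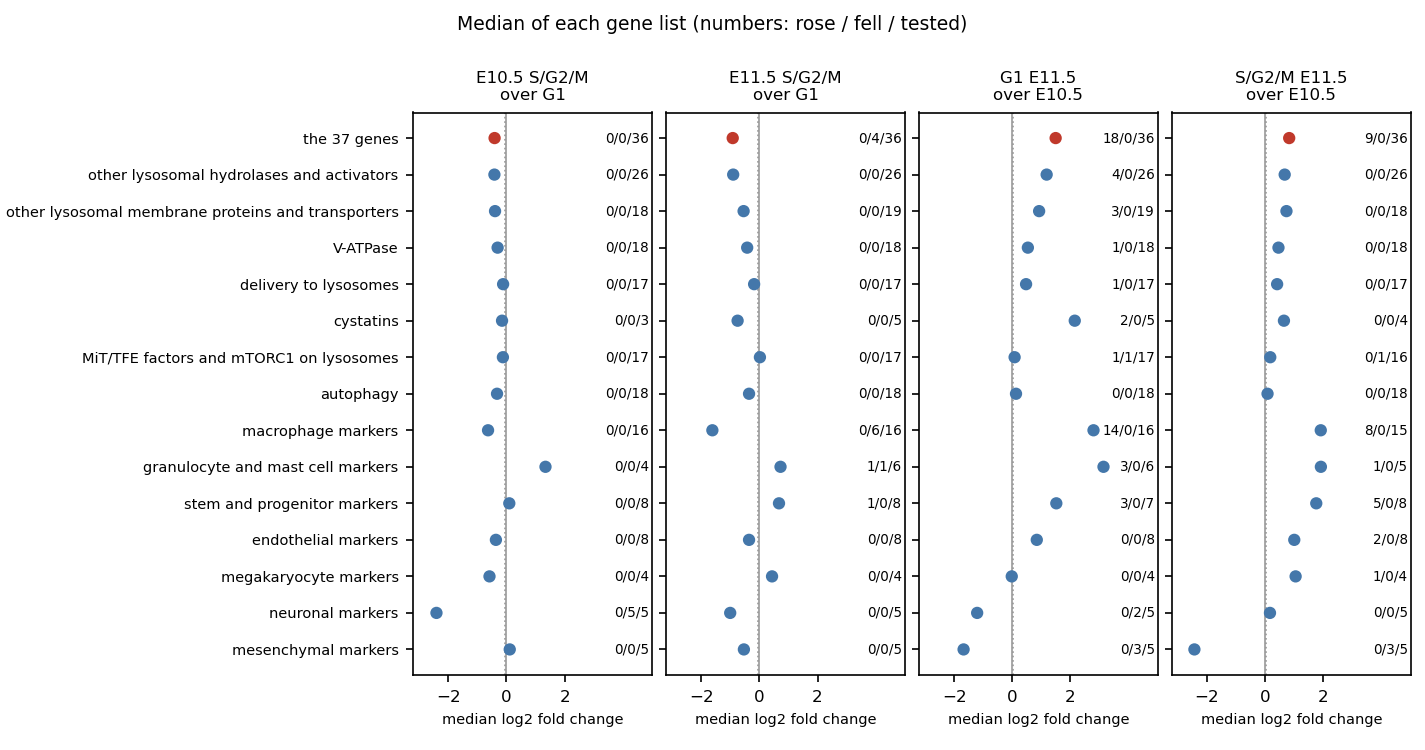
Median log2 fold change of the lysosomal genes (red), the 7 further lists and 7 marker lists (blue) in the 4 comparisons. The numbers beside each point are the genes that rose, fell and were tested by the authors' deposited table, and the grey lines mark 0 and the median of all tested genes. Among the marker lists, the macrophage and the endothelial markers lie on the same side of 0 as the lysosomal genes in every panel. The macrophage markers lie farther out than the lysosomal genes.

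Exons of 10 of the 37 genes overlap those of another protein-coding gene in the GENCODE annotation of mm10, namely Ctsa, Ctsb, Ctsd, Ctsz, Hexa, Glb1, Ppt1, Npc1, Lamp1 and Grn, and Ctsl overlaps an antisense gene and a processed pseudogene on its own strand. No source used here states strandedness, so reads of such partners cannot be told apart. Of the genes that fell in E11.5 S/G2/M cells, Cd68 and Lgmn have no such partner.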

How the data were processed

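Per the labels' protocols, total RNA was isolated from sorted cells, reads were trimmed, and bowtie 0.12.2 and the build mm8 were used. The submitters' processing notes instead name CASAVA 1.4, TopHat, Cuffdiff and mm10, with no role or order. All 37 deposited loci overlapped the mm10 gene of the same symbol, and starts are printed counting from 1. The authors deposited 6 tables holding, per the file headers, 1 FPKM value per gene and group. The p-values and q-values are those of the authors' deposited test. Cells labelled SG2M appear in the tables under G2, the sole remaining sorted group. Per table, 11147 to 11717 genes were left untested by the authors.

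Fold changes were computed as the plain ratio of FPKM values, and log2 ratios equalled the deposited ones within 2.78e-05. A Benjamini-Hochberg adjustment of the deposited p-values gave the deposited q-values within 5.27e-07. The smallest p was 5e-05, so the smallest q was 0.0101 and 0.0102 in the phase tables and 0.00273 and 0.00308 in those by age. Since values are per group, no test was run on samples, and the authors' q-values took the place of count tests. The members and lists were chosen with earlier results of these data known. Values are given for every called member, the 5 most abundant per group and examples of each role, and for up to 4 called or 2 abundant genes of a list, with Tfec, Mitf, Gabarap and some markers added after their values were seen. Promoter windows with CACGTG were printed for called genes of smallest q, and 2 without. Rnaset2a was not found in the tables, and 1 gene of a list is not reported here. The counting was tested on simulated data. Scripts ran in Python 3.11.15 with matplotlib 3.10.9, numpy 2.4.6 and pandas 2.3.3.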

Additional observations from a re-analysis of the deposited data

How the results depend on the processing

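Alternatives tried were median scaling, a pseudocount of 1, floors of 1 and of 5 FPKM, q thresholds of 0.01 and 0.085, an added minimum log2 fold change of 1, the lowest row of a symbol, the authors' phase tables in the other order, and leaving out Cd68, Ctss and Laptm5. Under q below 0.01, 0 genes fell in E11.5 S/G2/M cells, against 4, because no q in that table is lower, and 5 rose in S/G2/M cells by age, against 9. The other counts of calls stayed within 1.5 times. In G1 cells by age the median log2 fold change, 1.49, was 1.56 with at least 5 FPKM, 1.39 with a pseudocount of 1 and 1.41 without Cd68, Ctss and Laptm5. In the other 3 comparisons the median kept its sign under each alternative run. Among single genes, median scaling turned Cd63 at E11.5, S/G2/M over G1, to 0.000237. The lower threshold ended 12 calls and the higher one added 3, those of Tpp1 in G1 cells and of Ctsb and Hexa in S/G2/M cells by age. No paired analysis was possible because the deposited values are group values, and for the same reason no sample could be left out. The unknown depth limits the genes of low FPKM, such as Tfeb, Mcoln1, Naglu and Manba.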
